A study of Arabidopsis thaliana with 4 samples.

Results

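The CYCLING DOF FACTOR (CDF) group is a branch of the plant Dof zinc finger transcription factors, taken here as 7 Arabidopsis thaliana loci: CDF1 (AT5G62430), CDF2 (AT5G39660), CDF3 (AT3G47500), CDF4 (AT2G34140), CDF5 (AT1G69570), CDF6 (AT1G26790) and COG1 (AT1G29160). A locus was followed through probe sets that the array annotation pairs with it and with no other gene. This gave 4 of the 7 loci, CDF4, COG1, CDF5 and CDF6, with 1 probe set each among the 22810 on the array, which between them cover 13286 loci in this way. CDF1, CDF2 and CDF3 were not analysed here. The group was chosen by its DEX against mock signals on these same arrays, so its differences are given as descriptions and not as tests.

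Dof proteins bind short DNA elements with an AAAG core through a single conserved zinc finger. CDF transcripts follow a daily rhythm under the control of the circadian clock, high around dawn and repressed later in the day by the PRR proteins. CDF proteins repress the flowering genes CO and FT, and in long days the FKF1 and GI proteins have CDF1 degraded in the afternoon, which frees CO expression. COG1 was described as a negative regulator of phytochrome signalling, and CDF4 as a factor in the root columella and in leaf senescence.

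All 4 samples came from whole seedlings of 1 genotype, 35S::Dof3.2-GR, and untransformed plants were not analysed here. The 35S promoter, which is active in most tissues, drives a fusion of Dof3.2, another Dof factor, to the hormone-binding part of the glucocorticoid receptor, which keeps such a fusion out of the nucleus until dexamethasone (DEX) is added. The seedlings were kept at 22 °C, 4 days on agar that held 1% sucrose and 50 µg/ml kanamycin and then 4 days in shaken liquid medium. In the DEX group (2 arrays) 10 µM DEX was given for 3 h, and in the mock group (2 arrays) a mock treatment. The labels give neither the time of day of harvest nor whether replicates were separate cultures, so the spread between arrays may be technical. An effect of DEX that does not pass through the fusion cannot be told apart from one that does, and fewer cells of a type cannot be told apart from less RNA per cell. The question the contrast addresses is which transcripts change in level when Dof3.2 is released.

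The values are MAS5 signals of one-colour Affymetrix arrays, on a linear scale. A probe set was tested where its mean log2 signal reached the 40th percentile, a signal of 110.6, which kept 13648 probe sets. Log2 signals correlated across these probe sets at r = 0.985 between the mock arrays, 0.992 between the DEX arrays and 0.982 to 0.986 across groups. The green tissue genes RCA, PRK, LHCB4.2 and PORB had signals of 3700 to 23730 over the 4 arrays, and the root gene PYK10 had 13480 to 14580, so shoot and root were both present. Of 6 ratios of 3′ to 5′ control signals, a sign of RNA integrity, only that of the newer ubiquitin controls did not overlap between groups, at 1.58 and 1.48 for mock and 1.37 for each DEX array. The highest ratios were those of the older actin controls, at 10.5 and 18.5 for mock replicates 1 and 2 and 18.6 and 17.3 for the DEX arrays. The part of these ratios in the values below was not tested.

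CDF4 on chromosome 2 had the highest change of the 3 members bright enough to test. Its signal was 146.2 and 186.8 on mock replicates 1 and 2 and 530 and 441.1 on DEX replicates 1 and 2 (probe set 256720_at). Both DEX arrays thus lay far above both mock arrays, and the mean went from 166.5 ± 28.7 to 485.5 ± 62.9 (SD, n = 2 each). The ratio of these means was 2.92. On the log2 scale the change was 1.55, and it ran from 1.24 to 1.86 over the 4 pairs of a DEX and a mock array. Of the 13648 tested probe sets, 9 had a higher log2 change than CDF4. The 2 mock arrays differed 1.28-fold and the 2 DEX arrays 1.2-fold at this probe set, so even the closest DEX and mock arrays stood further apart than either pair of replicates.

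COG1 on chromosome 1 had a smaller change than CDF4 and the closest mock values of the 4 measured members on the log2 scale. Its signal was 263.5 and 255.9 under mock treatment and 453.5 and 403 after DEX (probe set 260887_at). The groups did not overlap, and the mean went from 259.7 ± 5.41 to 428.2 ± 35.7 (SD, n = 2 each). The ratio of means was 1.65. The log2 change was 0.72, with a range over array pairs of 0.61 to 0.83, and 66 tested probe sets had a higher one. The mock arrays differed 1.03-fold, a gap wider than that of only 14.3% of tested probe sets.

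CDF5, also on chromosome 1, had a change close to that of COG1 but a wider spread. Its signal was 227.6 and 156 under mock treatment and 310.3 and 283.5 after DEX (probe set 259834_at). The lower DEX value lay above the higher mock value by a log2 difference of only 0.32. The mean went from 191.8 ± 50.6 to 296.9 ± 18.9 (SD, n = 2 each), a ratio of 1.55. The log2 change was 0.65, with 87 tested probe sets higher. It depended on which mock array was used: within replicate 1 the change was 0.45 and within replicate 2 it was 0.86. Without mock replicate 1 it was 0.93, and without mock replicate 2 it was 0.38. The mock arrays differed 1.46-fold at CDF5, a wider gap than that of 95.2% of tested probe sets.

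CDF6, on chromosome 1, was dim on all 4 arrays. Its signal was 2.461 and 2.756 under mock treatment and 30.14 and 17.37 after DEX (probe set 261263_at), all under the level of 110.6 and therefore left out of the main test. In the limma fit without a filter CDF6 did not pass the threshold (adjusted p = 0.323). The DEX arrays were above the mock arrays, with means of 2.608 ± 0.208 and 23.75 ± 9.03 (SD, n = 2 each). The log2 change was 3.14, and with 20 added to every signal before the logarithm it was 0.94. Among the 9098 probe sets left out as dim, 23 had a log2 change at least as high and 71 one as far below 0, and 495 had mock arrays that differed from each other by at least this amount. No detection calls were used here, so whether the CDF6 transcript was present in either group is not settled by these values.

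**Figure D1:**
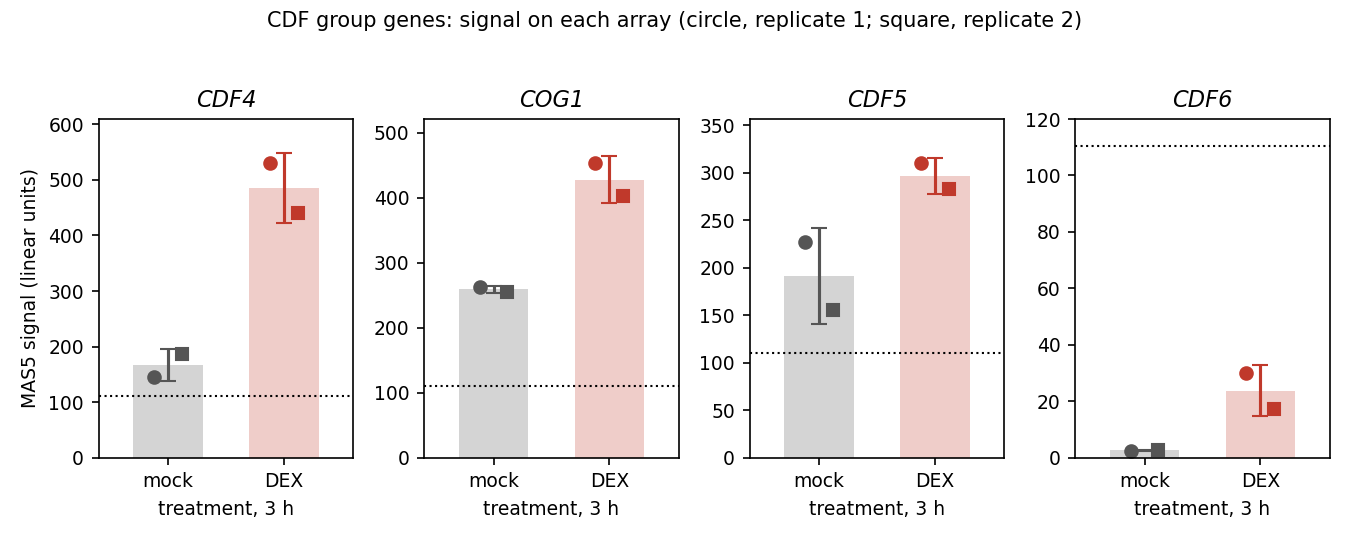
MAS5 signal (linear units, a separate scale for each gene) of CDF4, COG1, CDF5 and CDF6 in mock and DEX seedlings. Bars are means, error bars the SD of 2 arrays, circles replicate 1 and squares replicate 2, and the dotted line is the filter level of 110.6; CDF4, COG1 and CDF5 lie above it on every array and CDF6 below it, and both DEX arrays exceed both mock arrays for each gene.

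In the plot of signals by array, all 4 measured members had both DEX arrays above both mock arrays, as did 18.2% of the 13648 tested probe sets and 14.4% of the dim ones. The choice of the group used this contrast, so nothing is read from that count. The median log2 change over the 3 tested members was 0.72, against -0.01 over all tested probe sets. Over all 4 members, with the dim CDF6 included, it was 1.13, against -0.02 over all probe sets but controls. This 4-member median was 0.81 with 20 added to every signal. At 1.13 it lay apart from each member: COG1 and CDF5 had 0.72 and 0.65, and CDF4 and CDF6 had 1.55 and 3.14. In limma with Benjamini-Hochberg adjustment over all tested probe sets, 1 of the 3 tested members, CDF4, passed the threshold of 0.05, where 0.586% of tested probe sets passed (0.293% higher in DEX). The choice of the group used this too. Without mock replicate 1 all 3 tested members passed, and without mock replicate 2 CDF4 and COG1 did, but 496 and 260 probe sets passed in those fits against 80 with all arrays.

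Among themselves, the members differed in the size of their change and in which mock array was higher. Every DEX and mock pair gave CDF4 a log2 change of at least 1.24, while no pair gave more than 0.83 for COG1 or 0.99 for CDF5. The range of COG1 lay inside that of CDF5, so their changes are not distinguished by these arrays. Mock replicate 1 was the higher mock array for COG1 and CDF5 and the lower one for CDF4 and CDF6. On the DEX side all 4 members were higher on replicate 1 than on replicate 2, as were 50.1% of tested probe sets. With each probe set centred on its own mean over the 4 arrays, COG1 and CDF5 lay 0.36 apart (Euclidean distance of log2 values), CDF4 and COG1 0.88, and CDF4 and CDF5 1.1.

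**Figure D2:**
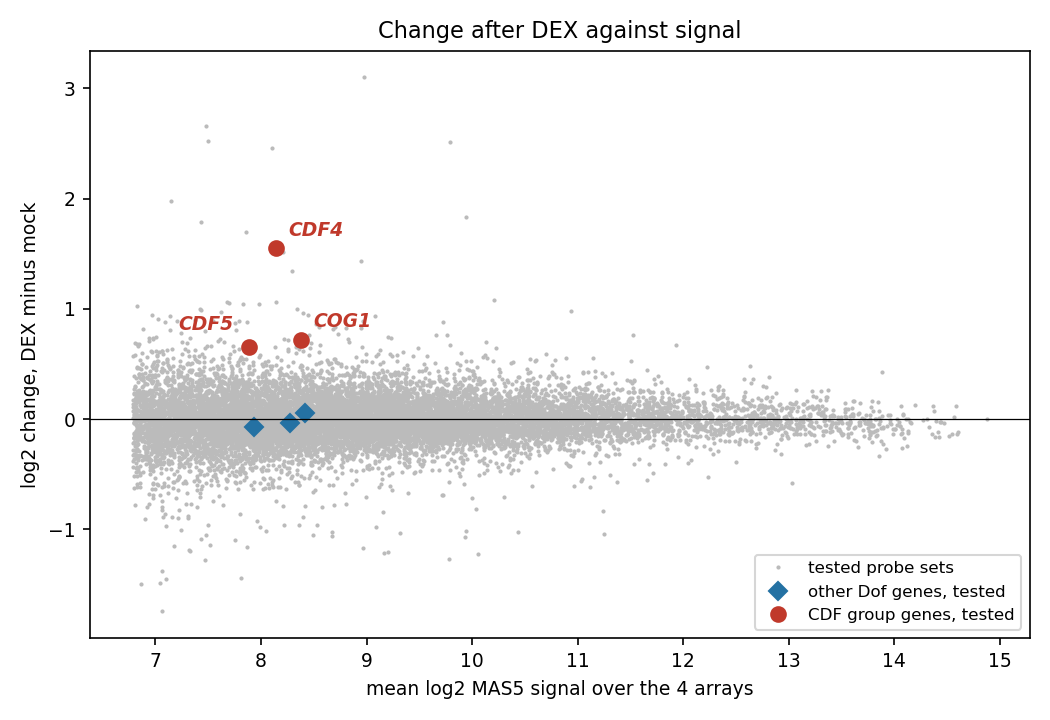
Log2 change, DEX minus mock, against the mean log2 MAS5 signal over the 4 arrays for the 13648 tested probe sets (grey). The CDF group genes CDF4, COG1 and CDF5 (red circles) lie at 1.55, 0.72 and 0.65, and the other Dof genes tested (blue diamonds), Dof4.6, Dof2.2 and Dof2.1, at -0.07, 0.06 and -0.04.

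The plot of change against signal places the members among all tested probe sets, of which 1.6% had a log2 change above 0.5. For each tested member, the 4 probe sets of another single locus with the nearest pattern over the 4 arrays were looked up among the 7275 tested probe sets that are paired with 1 locus. Nearest to CDF4 was AT5G60800, a gene for a protein with a heavy-metal-associated domain, with 170.7 and 178.9 under mock treatment and 452.5 and 551.5 after DEX, at a distance of 0.44. It was followed by PDF1.2b, a defensin gene whose probe set may share signal with near-identical genes, AT3G16330 and AT4G33380, at 0.53, 0.53 and 0.63. The nearest probe set to CDF4 was further off than COG1 and CDF5 are from each other, at 0.36. Both COG1 and CDF5 had probe sets of other genes nearer than that.

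Nearest to COG1 was AT5G60630, with 98.23 and 92.52 under mock treatment and 170.7 and 147 after DEX, at a distance of 0.047. AT3G28220, AT1G78110 and AT5G14210 followed at 0.094, 0.11 and 0.11. Nearest to CDF5 was AT2G22420, which encodes a class III peroxidase, a secreted haem enzyme of the cell wall. It had 252.1 and 171.5 under mock treatment and 330.2 and 292.7 after DEX, at a distance of 0.081. AT1G52140, AT1G08050 and AT5G66985 followed at 0.083, 0.11 and 0.12. All 4 genes nearest to CDF5 had mock replicate 1 above mock replicate 2, as CDF5 did, so the likeness includes that gap as well as the change after DEX.

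On the chromosome, the protein-coding genes next to the members were looked up within 2 places on either side, a choice made after the members' values were seen. For CDF5, the adjacent gene AT1G69580 had 155.6 and 140.9 under mock treatment and 185.8 and 212 after DEX, a log2 change of 0.42 ± 0.17 (SE, limma adjusted p = 0.477). AT1G69550, 2 places away on the other side, had a log2 change of 0.03 ± 0.17. For CDF4, AT2G34160, 2 places away, had 544.2 and 478.7 under mock treatment and 563.7 and 659.3 after DEX, a log2 change of 0.26 ± 0.14 (SE, limma adjusted p = 0.622). None of these 3 neighbours passed the threshold, where 0.586% of tested probe sets passed. AT1G69580 and AT2G34160 had both DEX arrays above both mock arrays, as did 18.2% of tested probe sets, and AT1G69550 overlapped. The unadjusted limma p was 0.0322 for AT1G69580, 0.0884 for AT2G34160 and 0.844 for AT1G69550, where 9.25% of tested probe sets were under 0.05. The other neighbours had no probe set of their own or were dim.

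The rest of the Dof family was sparsely covered. Of 29 other Dof loci, 8 had a probe set of their own and 3 were bright enough to test. In limma 0 of the 3 passed the threshold, where 0.586% of tested probe sets passed. At an unadjusted p under 0.05 the count was also 0, against 9.25% of tested probe sets. With 3 genes, nothing is read from these counts. Dof2.1, a factor known from leaf senescence, had 396.6 and 248.5 under mock treatment and 314.1 and 297.8 after DEX. Dof4.6 had 262.6 and 241.1 under mock treatment and 250.4 and 228.3 after DEX, and Dof2.2 had 330.8 and 338.4 against 327.7 and 370. All 3 overlapped between groups, with log2 changes of -0.07 to 0.06. The 5 dim ones had log2 changes of -0.53 to -0.0045, and the median over all 8 was -0.18. Of these dim ones only Dof1.6 did not overlap, with 62.94 and 65.32 under mock treatment and 46.96 and 46.97 after DEX. How many dim probe sets were lower on both DEX arrays is not given here, so nothing is read from this either. Whether the CDF group and the other Dof genes differ was not tested, since the members were chosen for this contrast.

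Genes that act with the CDFs were sparsely covered. Of 14 photoperiod regulators 1 was tested, GI, which encodes a large clock-regulated protein that forms a complex with FKF1. GI had 333.6 and 305 under mock treatment and 248.9 and 259.8 after DEX, so it was lower on both DEX arrays, with a log2 change of -0.33 ± 0.14 (SE, limma adjusted p = 0.526). The share of tested probe sets lower on both DEX arrays is not given here, so nothing is read from that order. Of 21 clock genes 1 was tested, RVE6, a MYB-like activator of evening genes. RVE6 had 195.8 and 189.7 under mock treatment and 177.6 and 187.9 after DEX, a log2 change of -0.08 ± 0.16 (SE, limma adjusted p = 0.936). CO, FT and the PRR genes were paired with no probe set of their own, so the flowering outputs and the clock repressors of the CDF genes were not analysed here.

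Of 18 genes described downstream of a CDF group member 2 were tested, both class III peroxidase genes. PRX25, described as a target of COG1 in seeds, had 188 and 192 under mock treatment and 265.8 and 256.5 after DEX. These groups did not overlap, with both DEX arrays above both mock arrays, as for 18.2% of tested probe sets. The log2 change was 0.46 ± 0.15 (SE, limma adjusted p = 0.338). PRX71 had 1009 and 1180 under mock treatment and 890.2 and 855.3 after DEX, a log2 change of -0.32 ± 0.12 (SE, limma adjusted p = 0.422). Neither passed the threshold, though PRX71 did without mock replicate 1 (limma adjusted p = 0.0485, the lowest over the alternatives, of which the highest was 1).

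**Figure D3:**
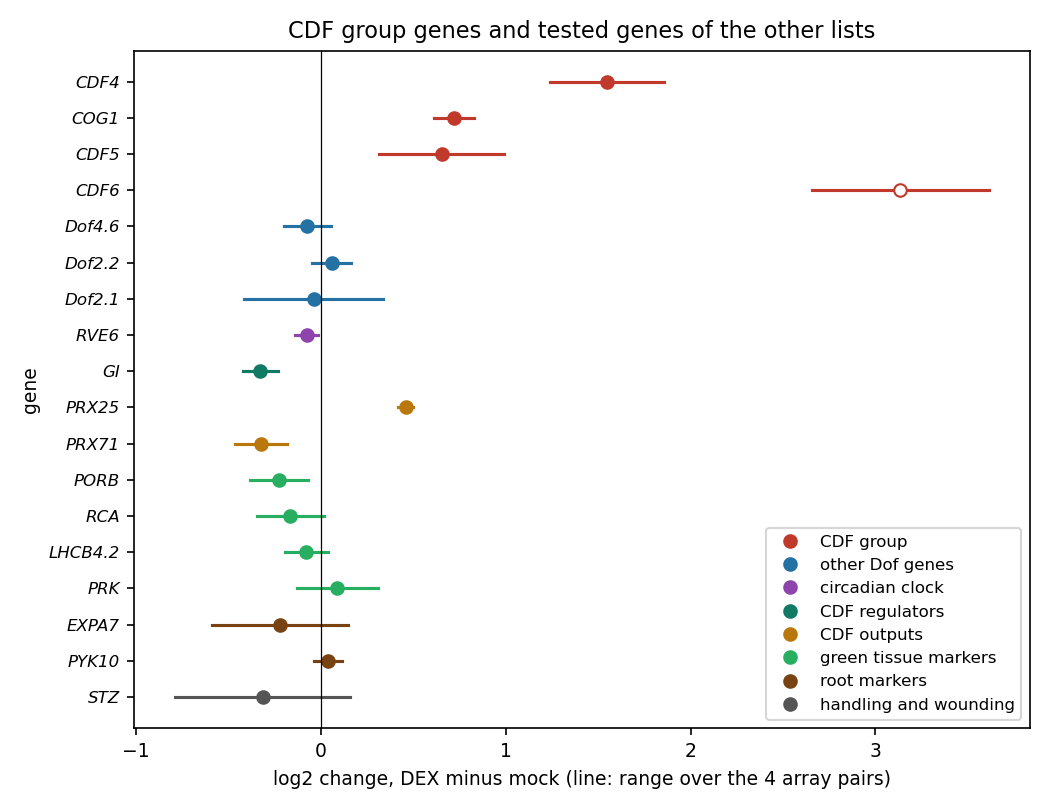
Log2 change, DEX minus mock, of the 4 measured CDF group genes and the 14 tested genes of the other lists. Points are differences of log2 means, open for CDF6, which was left out of the main test as dim. Lines span the 4 pairs of a DEX and a mock array. The lines of all 4 CDF group genes lie above 0, as does that of PRX25, while those of GI, PRX71, RVE6 and PORB lie below it. Both DEX arrays exceed both mock arrays for 18.2% of tested probe sets, and the share with both lower is not given here.

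Markers of tissue and handling were read beside the members. Summed signals of the 4 green tissue markers were 50190 and 52830 under mock treatment and 52050 and 44810 after DEX. Those of the 2 tested root markers were 13630 and 14220 against 13790 and 14760, so both sums overlapped between groups. The brightest genes carry these sums, PYK10 that of the root markers. Among the green tissue markers PORB did not overlap, at 4303 and 4830 under mock treatment and 3700 and 4099 after DEX. Nothing is read from this, since the share of tested probe sets lower on both DEX arrays is not given here. EXPA7, the dimmer root marker, had 158.1 and 211 under mock treatment and 140.2 and 175.2 after DEX and overlapped. STZ, a touch and wound responsive gene and the only tested member of its list, had 238.6 and 189.7 under mock treatment and 212 and 138.1 after DEX and overlapped too. Across the 7 other lists, 0 of 14 tested genes passed the threshold in limma, against 0.586% of all tested probe sets. Of the 14, 3 had an unadjusted p under 0.05, GI, PRX25 and PRX71, against 9.25% of all tested probe sets. The range of log2 changes among those 14, drawn in the plot of list genes, was -0.33 to 0.46, and CDF4, COG1 and CDF5 lay above it. The members were chosen for this contrast and the lists with earlier results known, so nothing is read from that.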

How the data were processed

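Total RNA was measured on 4 one-colour arrays. The authors deposited intensities, linear MAS5 signals per the submitters' processing notes; no source used here gives its version or settings. Leaving out 2% of values at either end, every array averaged 500, so each was scaled as a whole and a shift in RNA amount per cell is not visible. The number of arrays limits the precision. Control probe sets (64) were left out, signals were put on the log2 scale, and probe sets under the 40th percentile of mean log2 signal were not tested. Of 14016 annotated probe sets, 13513 had 1 gene and 503 several, and 8794 of the table had no entry; 13436 matched 1 locus through gene identifiers of RefSeq assembly TAIR10.1. The array's build is not named, so no coordinates are printed. No sequences are printed.

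The 2 groups were compared in limma 3.58.1 under R 4.3.3 with a group term only, variance prior following the mean, two-sided, Benjamini-Hochberg adjustment over 13648 probe sets. Of 9.74 degrees of freedom, 2 came from the arrays. On simulated data of that size the fit called 84% of the 100 given a 2-fold change and 100% of the 100 given a 4-fold change, with 7 false calls in 191. The simulated spreads were normal and drawn from the prior of the fit itself. They therefore check the procedure under its own model and not its performance on these arrays. An exact permutation test of 2 against 2 cannot go below p = 0.333. Members and lists were chosen with earlier results of these data known. Named are all members, the tested list genes (all, as no list had over 6) and the 4 nearest patterns of each tested member. Alternatives were other scalings, filters, a pseudocount, variance priors, the replicate number as a block, each array left out and another summary of a locus.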

Additional observations from a re-analysis of the deposited data

How the results depend on the processing

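With all 4 arrays 80 probe sets passed the threshold in limma. The count was 25 without a filter on dim probe sets, 43 with a filter at the 60th percentile, 185 with the replicate number as a block, and 25 to 496 when 1 array was left out: leaving out DEX replicate 1 gave 27, DEX replicate 2 gave 25, mock replicate 1 gave 496 and mock replicate 2 gave 260. Fits without 1 array take their spread from the group that keeps 2, and the cause of the other shifts was not tested. The filter at the 60th percentile left CDF4 and CDF5 untested. CDF4 passed in every setting that tested it, and COG1 also passed with the block. Same-numbered arrays deviated together at r = 0.11 over tested probe sets, and with only 2 pairs the numbers are not taken as pairing the samples. The median log2 change of the 4 CDF group members was 1.13 and moved to 0.81 with a pseudocount of 20, through CDF6, whose change went from 3.14 to 0.94; without 1 array the median was 1.02 to 1.24. Filters, variance priors and the block leave a log2 change as it is; over the arrays left out it ran from 1.37 to 1.73 for CDF4, 0.634 to 0.805 for COG1 and 0.38 to 0.93 for CDF5. The count of other list genes past the threshold was 0 and lay between 0 and 1 when 1 array was left out, with PRX71 passing without mock replicate 1. Signals near background limit what can be said of CDF6.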
